A study of Mus musculus with 6 samples.

Results

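A set of 10 genes of the major histocompatibility complex (MHC) class I antigen presentation pathway were followed across protein-induced pluripotent stem cells, embryonic fibroblasts and embryonic stem cells of the mouse. The genes were H2-D1, H2-K1, Gm8909, B2m, Tap1, Tap2, Tapbp, Psmb8, Psmb9 and Psmb10, and every array probe annotated with one of these symbols was taken, which gave 15 probes for 10 genes, out of 25697 probes for 16590 named genes. Expression had been measured on 6 Illumina bead arrays, 2 per group, from 500 ng of total RNA each. The induced cells (piPSC) were labelled as pluripotent stem cells induced by protein. The fibroblasts (OG2-MEF) were prepared from E13.5 embryos and carry a transgene for green fluorescent protein that the Oct4 promoter drives. The third group was the R1 line of embryonic stem (ES) cells. Per the labels, ES cells grew in serum and LIF, a cytokine that maintains them, on a layer of irradiated fibroblasts, and the piPSC samples carry the same protocol text. OG2-MEF were grown on gelatin in medium with serum, with no feeders or LIF listed, so culture and cell type cannot be told apart in comparisons with OG2-MEF. The labels do not say how many piPSC lines or embryos were used, or whether the 2 biological replicates of a group were separate cultures, so p-values cover only the spread between these arrays, which could be technical. With 2 arrays a group, array number limits precision.

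MHC class I molecules show fragments of a cell's own proteins at its surface to cytotoxic T cells and natural killer cells. A heavy chain, encoded by H2-D1 or H2-K1, pairs with the light chain beta-2 microglobulin (B2m) and with a peptide that the proteasome cut in the cytosol, that the Tap1 and Tap2 transporter carried into the endoplasmic reticulum, and that tapasin (Tapbp) helped to load. Psmb8, Psmb9 and Psmb10 are catalytic subunits that replace their standard counterparts in the immunoproteasome, and interferons raise many genes of this pathway in most cell types. Mouse ES cells and early embryos are known for low class I levels at the cell surface.

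The promoters of the heavy chain genes are shown beside that of B2m because these partners of 1 complex differed in the arrays, and the stretch between Psmb9 and Tap1 because both genes start from it in opposite directions. RefSeq (GRCm38.p6) gave a window of 250 bases before to 50 after the start site for 9 of the 10 members, Tap2 being the other. The 180 bases before the start are printed for the first 4 genes, and all 225 bases between both starts for the last. Capitals mark matches, on either strand, to the NF-kappaB consensus, the CCAAT box, the core of the interferon-stimulated response element (GAAANNGAAA) or the gamma-activated site (TTCNNNGAA).
H2-D1, chr17:35262914-35263093, plus strand: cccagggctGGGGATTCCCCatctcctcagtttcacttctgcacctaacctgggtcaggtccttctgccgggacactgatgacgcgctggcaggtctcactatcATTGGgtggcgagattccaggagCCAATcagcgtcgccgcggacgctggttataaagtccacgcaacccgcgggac
H2-K1, chr17:34000348-34000527, minus strand: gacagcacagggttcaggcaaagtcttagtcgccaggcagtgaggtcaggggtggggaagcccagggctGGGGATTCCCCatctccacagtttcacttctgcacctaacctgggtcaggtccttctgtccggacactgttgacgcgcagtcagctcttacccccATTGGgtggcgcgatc
Gm8909, chr17:36168538-36168717, minus strand: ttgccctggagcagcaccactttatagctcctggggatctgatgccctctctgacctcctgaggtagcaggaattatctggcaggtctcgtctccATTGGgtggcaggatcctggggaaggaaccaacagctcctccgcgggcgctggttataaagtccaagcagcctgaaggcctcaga
B2m, chr2:122147507-122147686, plus strand: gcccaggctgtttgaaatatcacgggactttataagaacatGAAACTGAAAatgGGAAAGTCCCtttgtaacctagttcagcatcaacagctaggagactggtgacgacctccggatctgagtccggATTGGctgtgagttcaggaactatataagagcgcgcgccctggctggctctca
Psmb9 to Tap1, chr17:34187331-34187555, plus strand, with Tap1 to the right: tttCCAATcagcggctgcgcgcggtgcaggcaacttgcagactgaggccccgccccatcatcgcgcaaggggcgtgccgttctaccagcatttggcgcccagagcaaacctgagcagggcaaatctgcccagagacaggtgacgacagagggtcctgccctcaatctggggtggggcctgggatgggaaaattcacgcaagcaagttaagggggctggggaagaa

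H2-D1 and H2-K1 shared an unbroken stretch of 40 bases in the printed promoters, just after the NF-kappaB match that both carry. The longest stretch that H2-D1 shared with Gm8909 was 18 bases, and with B2m 7 bases. Over the full windows, 3 of the 9 members (H2-D1, H2-K1 and B2m) held the NF-kappaB consensus, against 8.46% of all 32817 promoter windows. This motif was added after the sequences were seen, and H2-D1 and H2-K1 carry it with identical letters. Its count is therefore a description. The CCAAT box was in 7 of 9, against 37.4% of windows. Psmb9 and Tap1 hold the same box, in the stretch between their starts, and it was counted for each. This count is therefore a description too. An exact match to the interferon-stimulated core was in B2m alone, against 3.43% of windows. The gamma-activated site was in Psmb8 alone, against 8.29%. Variants of these letters were not searched for, so a missing match does not show that a promoter lacks such an element. These matches describe letters in a window of 300 bases and are not evidence of binding. By the same gene table, 8 members lie on chromosome 17, where Psmb9, Tap1, Psmb8 and Tap2 are consecutive protein-coding genes, while B2m lies on chromosome 2 and Psmb10 on chromosome 8.

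Levels are given as log2 of the intensity after background correction and quantile normalization between arrays, and a difference between groups is a difference of these values. A probe counted as above background where its detection p-value was under 0.05, and it was tested where this held on both arrays of at least 1 group. Of the 15 member probes, 13 passed, and each of the 10 genes kept at least 1. The probes that did not pass were the second of 3 for B2m (ILMN_2670561), below background on all 6 arrays, and the second of 2 for Tapbp (ILMN_3155492), above it on piPSC replicate 1 alone. H2-D1, both H2-K1 probes, Psmb8 and Psmb9 were not above background on both OG2-MEF arrays and passed through the pluripotent cells, so the choice of probes favours a difference for them. A probe counted as changed where limma's adjusted p was under 0.05 and the difference reached 2-fold. Where a gene was below background on both arrays of a group, the fold is a lower bound against the lowest detected signals of those arrays. The adjusted p beside such a bound, and the call, come from the fitted difference. Probe sequences were not used here, so whether a class I probe reads 1 gene or several near-identical class I genes was not tested.

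Across the whole table, ES replicate 2 stood apart. The difference between the 2 arrays had an SD over kept probes of 0.649 in ES, 0.212 in piPSC and 0.194 in OG2-MEF, and 952 probes were over 2-fold dimmer on ES replicate 2 than on ES replicate 1, against 41 that were brighter. Markers of the labelled cell types were in place: all 13 tested pluripotency markers were higher in piPSC and in ES than in OG2-MEF. Of 14 tested fibroblast markers, 13 were lower in piPSC and 12 in ES, and Lum was higher in both. The summed fibroblast marker signal was 83481 to 93287 in OG2-MEF, 20670 to 21860 in piPSC and 15314 to 18895 in ES, so it was above 0 in the cells kept with feeders. Their part in the member levels was not tested, and in bulk RNA fewer expressing cells and less RNA per cell cannot be told apart. Of 14 leukocyte markers, the defining genes Ptprc, Itgam, Tyrobp, Aif1 and Spi1 passed the detection filter in no group. Cd14 and Fcer1g were lower in piPSC and ES than in OG2-MEF, and Laptm5 was higher, by 5.24 and 4.98. Lyz2 was lower in both on its brightest probe, while its other tested probe differed by -0.64 in piPSC (adjusted p = 0.055) and 0.10 in ES (adjusted p = 0.73). With Laptm5 included, the summed leukocyte signal was 10447 to 11946 in piPSC and 787 to 823 in OG2-MEF and 8922 to 9725 in ES, and its part in the class I levels was not tested. Of 9 endothelial markers, 5 were tested, with Tek, Vwf and Egfl7 higher and Emcn lower in piPSC and in ES, although 1 other probe of Egfl7 was not called in either (0.27 and 0.61).

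**Figure D1:**
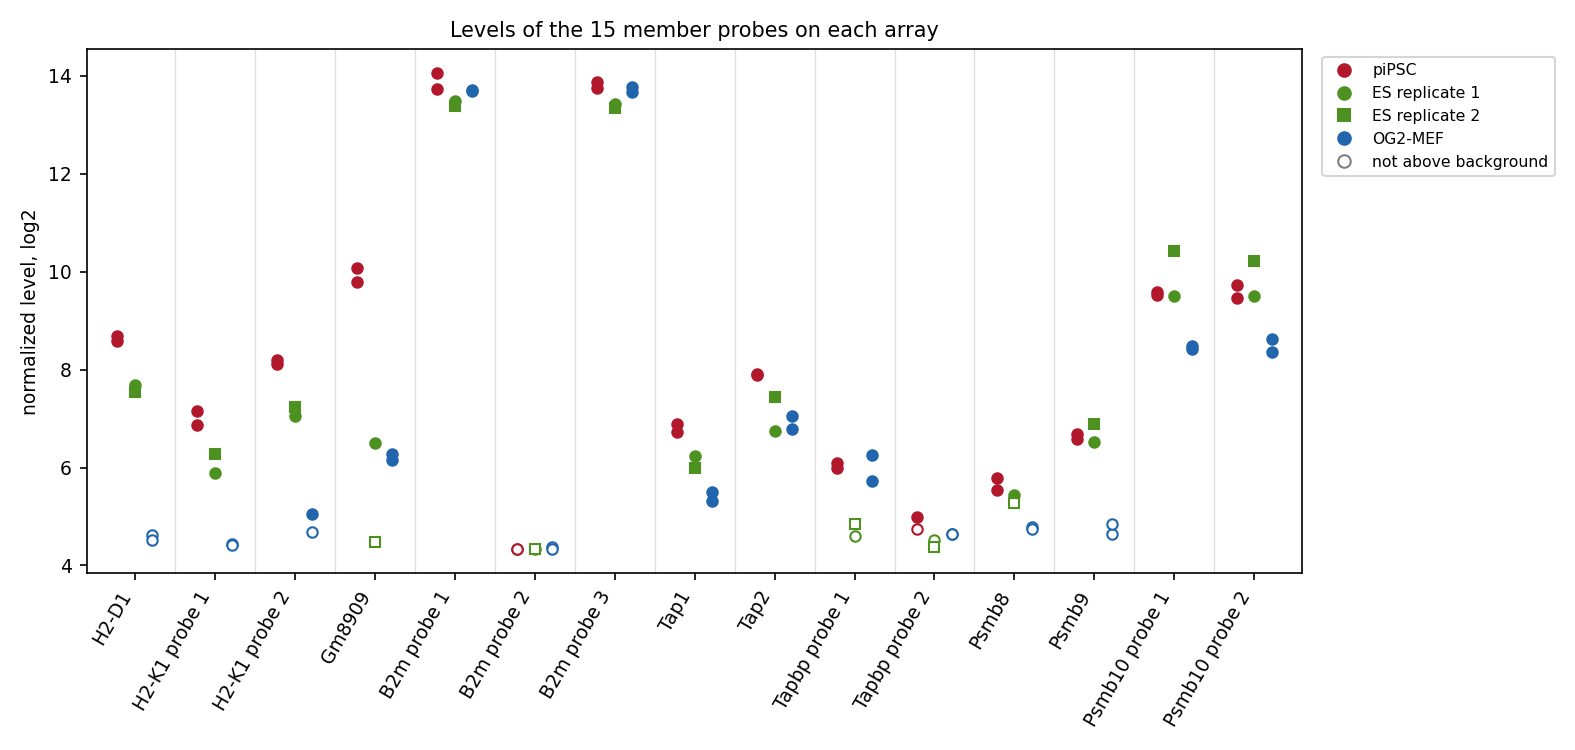
Normalized log2 level of each of the 15 member probes (horizontal axis) on the 6 arrays, coloured by group, with open symbols for values not above background. H2-D1, H2-K1 and Tap1 step down from piPSC to ES to OG2-MEF, Gm8909 is high on the piPSC arrays, and 2 of the B2m probes lie close together in all groups.

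The classical heavy chain genes were high in piPSC, intermediate in ES and at or near background in OG2-MEF. H2-D1 lay at 8.70 and 8.59 in piPSC, at 7.68 and 7.54 in ES, and at 4.62 and 4.52 in OG2-MEF. The 3 groups did not overlap, and neither OG2-MEF value was above background. The bound for H2-D1 over OG2-MEF was 12.4-fold in piPSC (adjusted p = 8.9e-06) and 6.02-fold in ES (adjusted p = 1.5e-05).

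H2-K1, the other classical heavy chain, showed the same order on both of its probes. On ILMN_2795520 the values were 8.20 and 8.12 in piPSC, 7.05 and 7.24 in ES, and 5.05 and 4.69 in OG2-MEF, the last of which was not above background. On ILMN_2634603 they were 7.16 and 6.86 in piPSC, 5.90 and 6.27 in ES, and 4.44 and 4.41 in OG2-MEF, neither above background. The groups were again separate on each probe. The first of these probes was higher in piPSC than in OG2-MEF by 3.29 (SE 0.17, adjusted p = 3.1e-05) and in ES by 2.27 (SE 0.17, adjusted p = 8.8e-05). The other had bounds of 3.99-fold in piPSC (adjusted p = 8.4e-05) and 2.10-fold in ES (adjusted p = 0.00039). With a background offset of 50 the ES difference of this probe was 0.88, under 2-fold.

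Gm8909, a gene the table also lists as H2-gs17 and whose promoter resembles that of H2-D1 over a short stretch, followed another order. It lay at 10.08 and 9.79 in piPSC and at 6.15 and 6.27 in OG2-MEF, all above background. The ES arrays disagreed, with 6.50 on replicate 1 and 4.49 on replicate 2, the latter below background. Gm8909 was 13.2-fold higher in piPSC than in OG2-MEF (log2 difference 3.72, SE 0.61, adjusted p = 0.0024). For ES against OG2-MEF the difference was -0.72 (95% interval -2.21 to 0.77, adjusted p = 0.32), and its sign depended on the ES array: 0.29 without ES replicate 2 and -1.73 without ES replicate 1 (adjusted p = 0.13 and 4.1e-06). Against the lowest detected signal of ES replicate 2, the bound for OG2-MEF over that array was 1.87-fold.

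B2m, the shared light chain, did not follow the heavy chains. Its probe ILMN_1216746 lay at 14.06 and 13.72 in piPSC, 13.496 and 13.388 in ES, and 13.70 and 13.69 in OG2-MEF. ILMN_2739999 gave 13.87 and 13.76 in piPSC, 13.42 and 13.34 in ES, and 13.67 and 13.78 in OG2-MEF. On both probes the ES arrays were the lowest. The piPSC and OG2-MEF values overlapped on ILMN_2739999, and on ILMN_1216746 piPSC lay above OG2-MEF. The differences of piPSC from OG2-MEF were 0.19 (95% interval -0.19 to 0.57, adjusted p = 0.32) and 0.09 (-0.22 to 0.40, adjusted p = 0.57). For ES they were -0.26 (-0.64 to 0.12, adjusted p = 0.18) and -0.34 (-0.65 to -0.03, adjusted p = 0.05), so that a change of 2-fold lay outside all 4 intervals.

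Of the peptide transporter subunits, Tap1 was higher in piPSC than in OG2-MEF. Tap1 lay at 6.73 and 6.90 in piPSC, 6.23 and 5.98 in ES, and 5.50 and 5.31 in OG2-MEF, with no overlap between groups. It was 2.65-fold higher in piPSC than in OG2-MEF (log2 difference 1.40, SE 0.15, adjusted p = 0.00048), and 1.62-fold higher in ES (0.70, SE 0.15, adjusted p = 0.0075), short of 2-fold. The piPSC difference was 0.99 on the authors' matrix and 0.94 with a background offset of 50, just under 2-fold. Tap2, its partner, lay at 7.90 on both piPSC arrays, at 6.75 and 7.43 in ES, and at 6.80 and 7.04 in OG2-MEF. Its piPSC values were above all others, while the ES values spanned those of OG2-MEF. The difference of piPSC from OG2-MEF was 0.98 (SE 0.24, adjusted p = 0.013), just under 2-fold, and that of ES was 0.17 (95% interval -0.42 to 0.76, adjusted p = 0.55).

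Tapbp, which bridges the transporter and the empty class I molecule, was lower in ES than in either other group. ILMN_1226819 lay at 6.10 and 5.998 in piPSC and at 6.25 and 5.73 in OG2-MEF, which overlapped, and at 4.60 and 4.84 in ES, below background on both arrays. Tapbp was at least 1.76-fold lower in ES than in OG2-MEF (fitted log2 difference -1.27, adjusted p = 0.0021), but by -0.83 on the authors' matrix and -0.70 with a background offset of 50, both under 2-fold. Between piPSC and OG2-MEF the difference was 0.06 (95% interval -0.45 to 0.57, adjusted p = 0.82).

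Of the immunoproteasome subunits, Psmb9 and Psmb10 were higher in both pluripotent groups than in OG2-MEF. Psmb9 lay at 6.59 and 6.68 in piPSC, 6.52 and 6.89 in ES, and 4.63 and 4.84 in OG2-MEF, where neither array was above background. The ES values enclosed those of piPSC. Its bound over OG2-MEF was 3.08-fold in piPSC (adjusted p = 0.00022) and 3.23-fold in ES (adjusted p = 0.00017).

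Psmb10 lay, on ILMN_2757870, at 9.52 and 9.59 in piPSC, 9.50 and 10.42 in ES, and 8.43 and 8.48 in OG2-MEF. On ILMN_2914843 it lay at 9.45 and 9.74 in piPSC, 9.51 and 10.22 in ES, and 8.36 and 8.63 in OG2-MEF. ES replicate 2 was the highest array on both probes and OG2-MEF the lowest group. Both probes were 2.15-fold higher in piPSC than in OG2-MEF (adjusted p = 0.017 and 0.011) and 2.84-fold and 2.59-fold higher in ES (adjusted p = 0.0044 and 0.0042). With the arrays scaled to the same median, the piPSC differences were 0.71 and 0.72 on the log2 scale, under 2-fold, and the call of ILMN_2757870 also ended without any 1 of the piPSC or OG2-MEF arrays (adjusted p from 0.072 to 0.089), and that of ILMN_2914843 without piPSC replicate 2 or OG2-MEF replicate 1 (0.076 and 0.081). Psmb8 lay at 5.80 and 5.55 in piPSC, 5.44 and 5.27 in ES, and 4.78 and 4.75 in OG2-MEF, with ES replicate 2 and both OG2-MEF arrays below background. Its bound in piPSC over OG2-MEF was 1.58-fold (fitted log2 difference 0.91, adjusted p = 0.0022), and it was called without piPSC replicate 2, at 1.03.

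**Figure D2:**
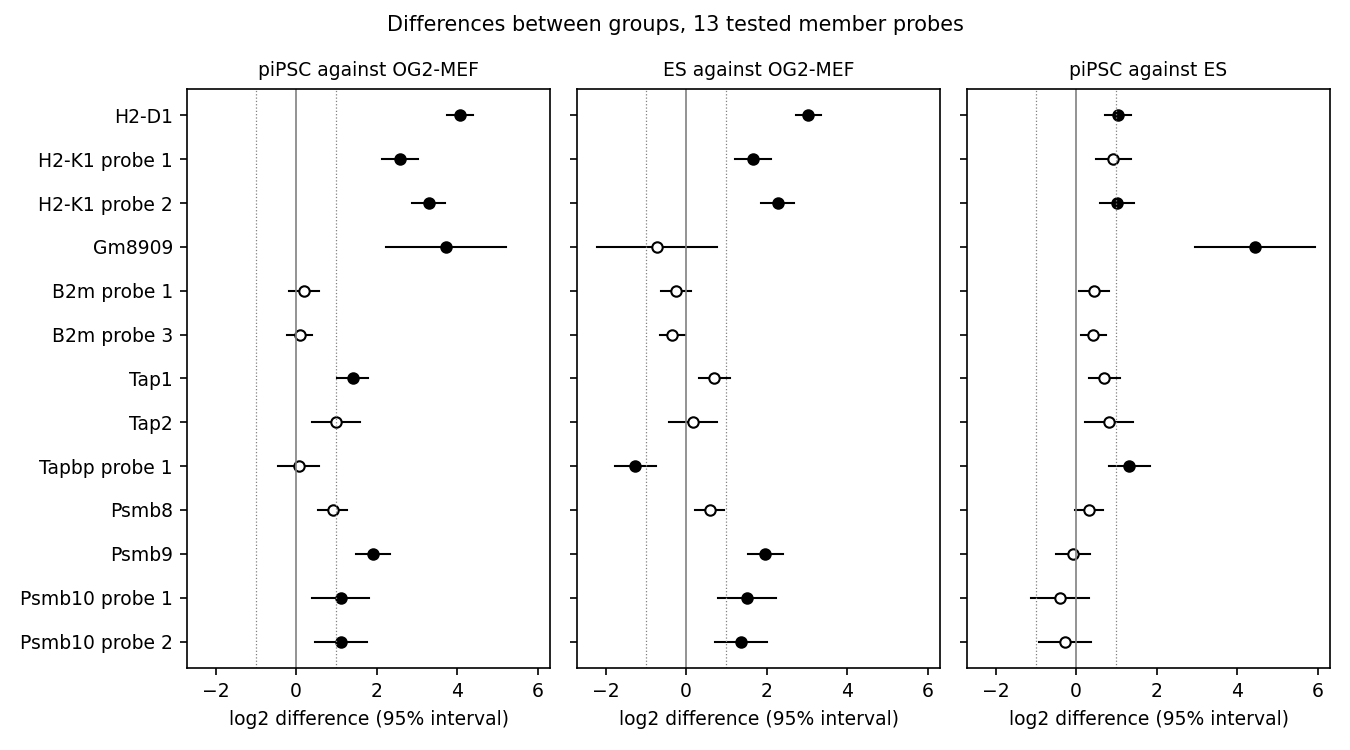
Log2 difference of each tested member probe (rows) in the 3 comparisons, with 95% intervals from the limma fit, filled where the probe counted as changed, and dotted lines at a 2-fold difference. H2-D1 lies farthest right in the first 2 panels, at 4.07 and 3.04, B2m lies near 0 in the first panel, and Gm8909 has the widest interval.

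In all, 8 of 13 tested probes (6 genes) were higher in piPSC than in OG2-MEF and 0 lower, where 40.1% of all 14533 tested probes changed, 19.1% being higher and 21% lower. The members' differences ran from 0.06 to 4.07 with a median of 1.10, beside a median of 0.02 over all probes. In ES, 6 probes (4 genes) were higher and 1 was lower, where 46.6% of all probes changed, 23.2% being higher and 23.4% lower, and the member median was 0.70. H2-D1, both H2-K1 probes, Psmb8 and Psmb9 passed the detection filter through the pluripotent cells, which favours a difference. These counts and medians are therefore a description. Both comparisons use the same OG2-MEF arrays. Scaling to the same median shifted the median of all probes by -0.182 and -0.166 in these comparisons and moved the split of changed probes in piPSC from 2776 higher and 3054 lower to 2175 higher and 3794 lower. H2-D1, both H2-K1 probes, Gm8909, Tap1 and Psmb9 stayed changed in piPSC under that scaling.

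The direct comparison of piPSC with ES asked which members separate the induced cells from an established line. The ES cells were the R1 line alone, so traits of this line and of ES cells cannot be told apart here. A part of genetic background was not tested. H2-D1 was 2.05-fold higher in piPSC (log2 difference 1.04, SE 0.13, adjusted p = 0.0056), and both piPSC arrays exceeded both ES arrays. The H2-K1 probes were higher by 1.02 (SE 0.17, adjusted p = 0.012) and 0.93 (SE 0.18, adjusted p = 0.018), and the latter did not reach 2-fold. The fitted difference of Gm8909 was 4.44 (SE 0.61, adjusted p = 0.007), with 1 of the 2 ES arrays above background. The piPSC mean was 3.43 above ES replicate 1, and its bound over ES replicate 2, where the probe was below background, was 24.6-fold. The bound for Tapbp in piPSC over ES was 1.83-fold, under 2-fold. Tapbp counted as changed on its fitted log2 difference of 1.33 (adjusted p = 0.01). The 4 changed probes stand beside 11% of all probes that changed in this comparison, 7% being higher in piPSC and 4.03% lower.

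The other members did not pass against ES. Tap1 was higher in piPSC by 0.70 (SE 0.15, adjusted p = 0.025), under 2-fold, and Tap2 by 0.81 (SE 0.24, adjusted p = 0.054). The B2m probes differed by 0.45 and 0.43 (adjusted p = 0.077 and 0.052), Psmb8 by 0.32 (adjusted p = 0.14) and Psmb9 by -0.07 (95% interval -0.49 to 0.35, adjusted p = 0.78). Psmb10 differed by -0.40 and -0.27 (intervals -1.12 to 0.31 and -0.92 to 0.38).

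The calls against ES were less firm than those against OG2-MEF. All 4 were lost without either piPSC array, with adjusted p from 0.051 to 0.099, while the differences stayed between 0.97 and 4.58. On the authors' matrix H2-D1 differed by 0.95, this H2-K1 probe by 0.90 and Tapbp by 0.87, all under 2-fold with adjusted p of 0.013 or below, and Gm8909 alone was called. Without ES replicate 2, 5 probes were called, Tap2 among them at 1.15 (adjusted p = 0.00041), but H2-D1 was at 0.97, under 2-fold. In that fit the lone ES array is assumed to vary like the other groups.

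**Figure D3:**
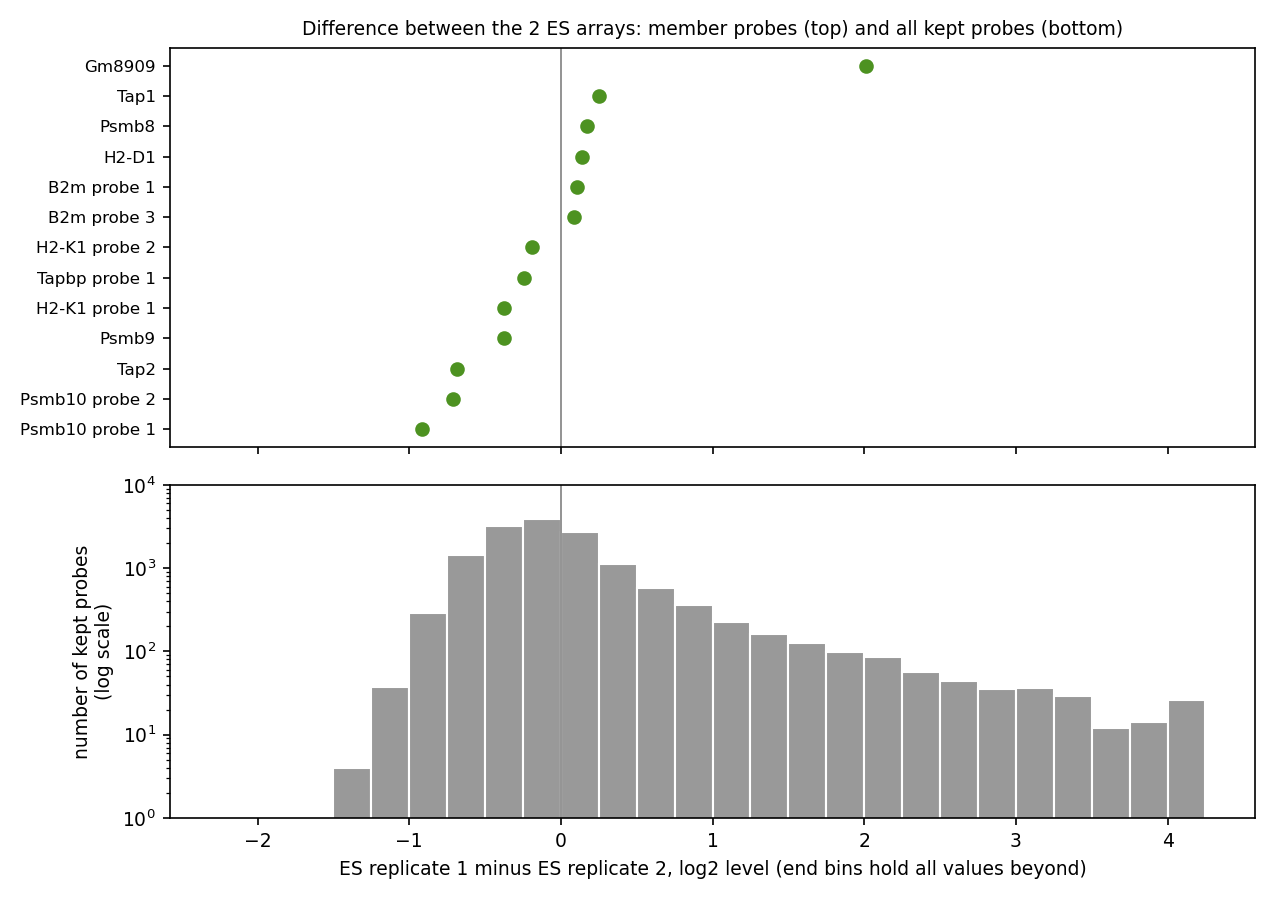
Difference of ES replicate 1 from ES replicate 2 in log2 level for the 13 tested member probes (top, 1 row each) and for all 14533 kept probes (bottom, counts on a log axis). Gm8909 lies at 2.01, in the right tail, with ES replicate 2 below background, and the other members lie between -0.91 and 0.25.

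The ES arrays differed by a median of 0.25 over the member probes, in absolute log2 value, beside 0.28 over all probes. Gm8909 was the single member past 2-fold between them, while 6.83% of all probes were. As it was below background on ES replicate 2, its fold is a bound of 2.29. Tap2 and both Psmb10 probes were higher on ES replicate 2, by 1.61-fold, 1.88-fold and 1.64-fold. Differences of these members from ES depend on which ES array is taken.

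Several other class I genes were higher in the pluripotent cells. Of 23 listed genes, 18 had a probe and 12 passed the detection filter, of which 7 were higher in piPSC than in OG2-MEF and 0 lower, beside 41.6% of 9900 genes changed with 1 probe per gene, 20.1% being higher and 21.5% lower. In ES 5 were higher and 0 lower, beside 46.7% changed (25.1% higher and 21.6% lower). Between piPSC and ES, 4 were higher in piPSC and 0 lower, beside 8.36% changed (3.94% higher and 4.42% lower). H2-Bl, H2-M2, H2-Q7, H2-Q8 and H2-T10 were below background on both OG2-MEF arrays and passed the filter through the pluripotent cells, so the choice of probes favours a difference for 5 of the 7, and these counts are a description. The other 2, H2-T23 and Fcgrt, were above background on all 6 arrays. H2-Bl, a class I gene named for the blastocyst, lay at 8.74 and 8.88 in piPSC, 7.81 and 8.27 in ES, and below background in OG2-MEF. Its bound over OG2-MEF was 13.8-fold in piPSC and 8.16-fold in ES (adjusted p = 1.7e-05 and 2.4e-05). H2-T10, a ligand of some gamma-delta T cell receptors, had bounds of 9.76-fold and 2.80-fold, and H2-M2 of 5.49-fold and 3.03-fold.

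H2-T23 encodes Qa-1, which presents leader peptides of other class I chains to natural killer receptors. The probe with the higher mean lay at 9.42 and 9.20 in piPSC, 8.03 and 7.36 in ES, and 6.35 and 6.36 in OG2-MEF, a difference of 1.61 between piPSC and ES (SE 0.24, adjusted p = 0.0087). The gene's other tested probe differed by -0.55 from OG2-MEF in piPSC (adjusted p = 0.043, under 2-fold) and was at least 2.04-fold lower in ES, where it was below background (adjusted p = 0.00081), so the probes of H2-T23 disagree in direction. The call in ES on the first probe (1.35) ended with the arrays scaled to the same median (0.97). H2-Q8, above background on 1 of 2 ES arrays, passed the detection filter through piPSC alone, which favours a difference from ES as well. It differed between piPSC and ES by 2.46 (adjusted p = 0.0033). This call held under all 8 alternatives tried for the lists, but these kept the same choice of probes. Without either piPSC array, 1 gene of the list was called between piPSC and ES. Among class I-like genes outside the peptide pathway, Fcgrt, a receptor that carries immunoglobulin G, was higher in piPSC than in OG2-MEF by 1.34 (SE 0.18, adjusted p = 0.0011), a call that ended with the arrays scaled to the same median (0.97). Cd1d1, Mr1 and Hfe differed by 0.19 or less between piPSC and OG2-MEF. Between ES and OG2-MEF they differed by 0.17, 0.43 and 0.38, and none was called in any comparison.

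**Figure D4:**
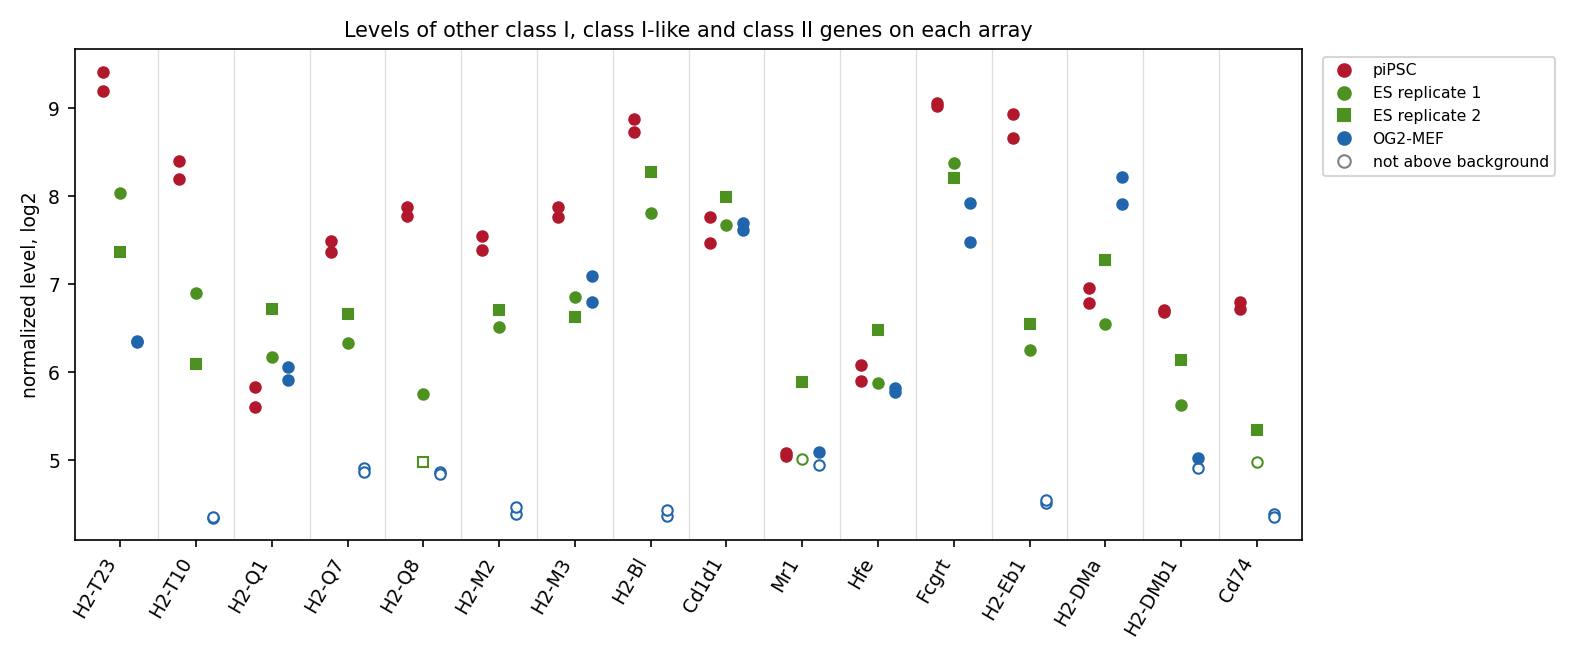
Normalized log2 levels of 12 other class I or class I-like genes and 4 class II genes on each array, with open symbols for values not above background. H2-T10, H2-Q7, H2-Q8, H2-M2, H2-Bl, H2-Eb1 and Cd74 are below background on both OG2-MEF arrays and above it on both piPSC arrays, while Cd1d1 and Mr1 overlap between groups.

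Class II molecules present peptides from outside the cell and belong to professional antigen-presenting cells. Of 9 listed class II pathway genes 4 were tested, and H2-Aa and H2-Ab1 did not pass the detection filter. H2-Eb1, a class II beta chain, lay at 8.94 and 8.67 in piPSC and 6.25 and 6.54 in ES, and its bound in piPSC over OG2-MEF was 13.8-fold (adjusted p = 1.4e-05). Between piPSC and ES it differed by 2.41 (SE 0.16, adjusted p = 0.00092). Of the 4, 3 were higher and 1 lower in piPSC than in OG2-MEF, beside 41.6% of all genes changed, and 1 was higher and 1 lower in ES, beside 46.7%, a share near that of all genes. H2-Eb1 and Cd74 were below background on both OG2-MEF arrays, and H2-DMb1 was above it on only 1 of them. The choice of probes therefore favours a difference for these 3 genes, and the counts are a description. Cd74, the invariant chain, had a bound of 3.36-fold in piPSC over OG2-MEF, and H2-DMb1, a peptide editor subunit, was higher by 1.73. The partner of the latter, H2-DMa, was lower by -1.19 in piPSC and by -1.16 in ES, and both calls ended without OG2-MEF replicate 1. The piPSC call also ended without piPSC replicate 1, and the ES call without ES replicate 1 and on the authors' matrix.

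The standard catalytic subunits, which the immunoproteasome subunits replace, moved unequally. Psmb5, the counterpart of Psmb8, lay at 12.07 and 11.96 in piPSC, 10.32 and 9.92 in ES, and 9.01 and 9.26 in OG2-MEF, with no overlap. It was 7.37-fold higher in piPSC than in OG2-MEF (adjusted p = 5.9e-05) and 3.73-fold higher than in ES (adjusted p = 0.0025), the 1 of 3 that changed in either. Psmb6, the counterpart of Psmb9, differed by 0.98 (piPSC) and 0.84 (ES) from OG2-MEF, under 2-fold. Psmb7, the counterpart of Psmb10, differed by 0.06 (adjusted p = 0.9) and -0.88 (adjusted p = 0.091) on its brightest probe. Its other tested probes gave 0.39 (adjusted p = 0.086) and 0.87 (adjusted p = 0.0039) in piPSC, both under 2-fold, and 0.03 (adjusted p = 0.87) and 1.12 (adjusted p = 0.0012) in ES.

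Among proteasome activators and assembly factors, 4 of 7 genes were higher in piPSC and 4 in ES than in OG2-MEF, and 0 were lower, beside 20.1% and 25.1% of all genes that were higher. Psme1, the alpha chain of the PA28 cap, lay at 12.38 and 12.35 in piPSC, 11.60 and 11.83 in ES, and 10.55 and 10.31 in OG2-MEF. It was higher by 1.93 in piPSC (SE 0.15, adjusted p = 0.00013) and by 1.29 in ES, and its other probe gave 2.08 and 1.31. Psme2, the beta chain, was higher in piPSC by 1.37 (SE 0.48, adjusted p = 0.047), a call that ended without any 1 of the piPSC or OG2-MEF arrays and with the arrays scaled to the same median, where 2 of the 7 genes were higher in piPSC. Psme2 lay at 10.20 and 9.96 in piPSC and 8.77 and 8.66 in OG2-MEF, and its ES arrays were far apart, at 8.94 and 7.36. The assembly chaperone Psmg1 was higher by 1.92 in piPSC and 1.89 in ES, and Psme3, which forms a separate nuclear cap, was higher by 1.35 in ES. Of 3 tested cytosolic peptidases, Blmh and Thop1 were higher in piPSC, by 1.33 and 1.18, and both were under 2-fold with the arrays scaled to the same median. Tpp2 differed by -0.76, which was not called, but under that scaling Tpp2 was called lower.

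Several chaperones of the endoplasmic reticulum that serve the loading of class I molecules were lower in the pluripotent cells. Of 7 tested genes of this list, 4 were lower in piPSC than in OG2-MEF and 5 in ES, and 0 were higher, beside 21.5% and 21.6% of all genes that were lower. Calr, which holds heavy chains in the loading complex, lay at 10.31 and 9.93 in piPSC, 8.04 and 7.13 in ES, and 11.99 and 11.03 in OG2-MEF. The groups were separate, and Calr was lower by -3.93 in ES (SE 0.42, adjusted p = 0.00036) and by -1.39 in piPSC (SE 0.42, adjusted p = 0.027), although the piPSC call ended without piPSC replicate 1, piPSC replicate 2 or OG2-MEF replicate 1. The list's count in piPSC ran from 2 (without piPSC replicate 2 or OG2-MEF replicate 1) to 6 (without OG2-MEF replicate 2, or scaled to the same median). Sec61a1, a channel subunit for proteins entering this compartment, was lower by -1.42 in piPSC, and Uggt1, a folding sensor, by -1.31. Pdia3, a disulfide isomerase of the loading complex, was lower by -1.02 in ES, and Ganab, which trims glycans, by -1.02, with -4.52 and -1.18 on its other probes, the first of them above background on 1 of 2 ES arrays. Both ES calls ended without OG2-MEF replicate 1 or ES replicate 2, and the list's count of lower genes in ES was then 1 and 2. Erap1, the peptidase that trims peptides before loading, had no tested probe.

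**Figure D5:**
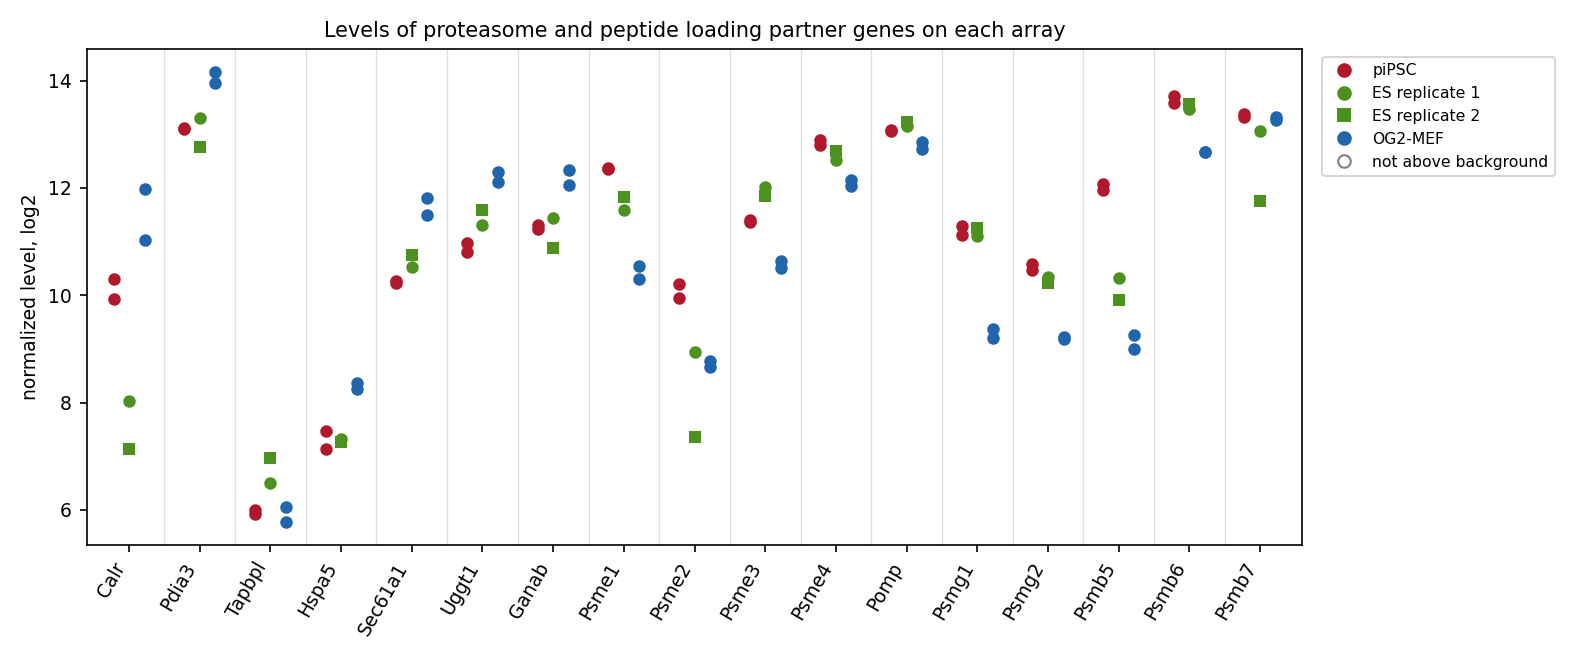
Normalized log2 levels of 7 peptide loading, 7 activator or assembly and 3 standard catalytic genes on each array. Calr, Sec61a1 and Uggt1 are highest in OG2-MEF, Psme1, Psmg1 and Psmb5 are lowest there, and Psme2 and Psmb7 differ widely between the ES arrays.

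Of 17 tested regulators of class I genes and of interferon signals, 4 were higher and 4 lower in piPSC than in OG2-MEF, with a median of 0.00, beside 41.6% of all genes changed. In ES 3 were higher and 4 lower, beside 46.7%, so both shares were near those of all genes. Irf9, which joins Stat2 in the complex that carries type I interferon signals, lay at 9.77 and 9.83 in piPSC, 8.57 and 8.11 in ES, and 7.90 and 7.71 in OG2-MEF. It was higher in piPSC than in OG2-MEF by 1.99 (SE 0.19, adjusted p = 0.00025) and than in ES by 1.46 (adjusted p = 0.0058), the latter call ending without either piPSC array. Its other probe was higher by 1.36 than in OG2-MEF, and its bound in piPSC over ES, where it was below background, was 3.60-fold. Stat2 was higher by 1.43 in piPSC than in OG2-MEF, and Tyk2 by 1.07. Jak2 and Ifnar2 of the same list were lower in piPSC than in OG2-MEF, by -1.59 and -1.27. The call of Tyk2 ended without OG2-MEF replicate 1 and with the arrays scaled to the same median. That of Ifnar2 ended on the authors' matrix.

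Irf2, a factor that binds interferon response elements, was lower by -2.47 in piPSC and -2.47 in ES (adjusted p = 6.9e-05 and 6e-05), and Ifngr1, the ligand-binding chain of the interferon gamma receptor, by -1.95 and -2.23. Nfyb, a subunit of the factor that binds CCAAT boxes such as those in the printed promoters, was higher by 1.60 and 1.85. The other subunits of this factor did not follow it. Nfya differed by -0.43 in piPSC, which was not called. In ES it was lower by -1.33, a call that ended on the authors' matrix. Nfyc differed by 0.57 in piPSC and 0.79 in ES and was called in neither. For Ifngr2, the partner chain of Ifngr1, the brightest probe was higher in ES by 1.85 while its other probes, each above background on 1 of 2 ES arrays, gave -3.31 and -3.65, so their directions disagree. Irf1, an activator of class I genes, differed by 0.75 in piPSC (adjusted p = 0.0071) and 0.47 in ES on its brightest probe, while its 3 other probes ran from -0.14 to 1.12 in piPSC. In ES, 1 of the 3 was higher by 1.36 and the other 2 were below background, with bounds of 1.68-fold and 1.74-fold lower. Nlrc5, the class I transactivator, and Ciita, its class II counterpart, did not pass the detection filter.

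The genes whose pattern over the 6 arrays was nearest to the median member profile were Ccl4, Gm3696, Ercc4, Stard8 and Oxnad1. Likeness was the root mean square difference of the centred log2 values, which was 0.05 to 0.09 for these genes out of 9890 ranked. Ccl4, for example, lay at 5.84 and 5.85 in piPSC, 5.36 and 5.42 in ES, and 4.42 and 4.48 in OG2-MEF. With 3 groups of 2 arrays this likeness describes a step from piPSC to ES to OG2-MEF and nothing finer.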

How the data were processed

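The deposited table held a linear intensity and a detection p-value for each of 25697 probes on 6 arrays, not normalized between arrays, per the file headers. A series matrix deposited by the authors held log2 values, and quantile normalization of the log2 intensities matched them within 0.0012. The scanner is not given in the sources used here. Background was corrected by normexp from the detection p-values (neqc, limma 3.58.1, R 4.3.3), with an offset of 16 before quantile normalization and log2. Symbols were updated through Entrez identifiers (23962 probes) or accessions (9) to GRCm38.p6, and 1719 probes were unnamed. Each of 14533 probes above background (detection p under 0.05 on both arrays of a group) was tested by limma (lmFit, eBayes) in a single fit with a mean for each of the 3 groups (3 residual degrees of freedom, prior 2.89), with Benjamini-Hochberg adjustment within each comparison. SE is the moderated standard error and n is 2 per group. Pathway genes are represented by their brightest probe. Named were all members, up to 3 changed genes of each list with the largest difference, and a fixed set of regulators and partners. Stat2, Nfya, Nfyc, Ciita, Cd1d1, Mr1, Hfe, Fcgrt, H2-Aa, H2-Ab1 and the markers were named after their values were seen. So were Tyk2, Jak2, Ifnar2 and Tpp2, which are given on their brightest probe alone. For the other named pathway genes, other tested probes are given where they disagree. Members, lists and tests were chosen with earlier results of these data known. The NF-kappaB motif and the list alternatives were added after seeing the data. The fit was tested on simulated data.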

Additional observations from a re-analysis of the deposited data

How the results depend on the processing

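Against OG2-MEF, the count of changed member probes stayed within 1.5 times under every alternative tried: 6 to 10 in piPSC (8 as reported) and 5 to 10 in ES (7). For piPSC against ES, 4 member probes were called as reported, 1 on the authors' matrix, 1 with an offset of 50, 1 when tested against a 1.5-fold change, and 0 to 5 when an array was left out. The 0 came without either piPSC array. Over all probes, this comparison gave 1602 changed as reported, 933 with the offset of 50, 846 when fitted on 1 probe per gene alone (828 of the same 9900 genes in the fit over all probes), 585 against a 1.5-fold change, 1047 with only its 2 groups in the fit, and 434 to 2982 when an array was left out. On the authors' matrix 835 were higher and 260 lower, beside 1017 and 585. With no minimum fold, 9466, 10394 and 3995 probes changed in the 3 comparisons. Some small differences that were not called turned sign. With the arrays scaled to the same median, Tapbp in piPSC against OG2-MEF was at -0.061, Tap2 in ES at -0.25, and Psmb9 between piPSC and ES at 0.16. With 1 array left out at a time, Tapbp in piPSC ran from -0.20 to 0.32, and in ES Gm8909 ran from -1.73 to 0.29 and Tap2 from -0.17 to 0.51. Between piPSC and ES, Psmb9 ran from -0.26 to 0.12 and Psmb10 from -0.86 to 0.053 and from -0.63 to 0.085. The value of Gm8909 at -1.73, without ES replicate 1, was called. The cause was not tested. The replicate numbers are shared by the groups, but the correlations of same-numbered deviations were 0.0776, 0.00356 and 0.251, so they were not taken as pairs. With the replicate block the fits called 8, 7 and 4 member probes and 5846, 6802 and 1614 probes in all. Signal near background limits H2-D1, H2-K1, Psmb8 and Psmb9 in OG2-MEF and Tapbp in ES to bounds.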
